A study of Homo sapiens with 12 samples.

Results

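Osteoblast and bone matrix genes were followed as a set of 10: RUNX2, SP7, ALPL, SPP1, IBSP, SPARC, TNFRSF11B, PHEX, DLX5 and PTH1R. They were chosen by gene symbol rather than by a rule on their values, but with earlier results of these data known. Each is read by 1 probe set, a group of short DNA probes for 1 transcript, among the 19460 tested probe sets that carry exactly 1 symbol, and all 10 are reported. RNA came from U2OS-ERα cells, a human osteosarcoma line that carries estrogen receptor α, and was hybridised to 12 arrays of the type Affymetrix Human Gene 1.0 ST. All cells were grown in medium with charcoal-stripped serum, which is poor in steroids, and received 50 nM of an siRNA pool.

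The 4 groups were NT_V (non-targeting siRNA, ethanol vehicle), NT_E (non-targeting siRNA, 17-B-estradiol), siSRC-1_V (siRNA against SRC-1, ethanol vehicle) and siSRC-1_E (siRNA against SRC-1, 17-B-estradiol), each treated for 3 h, with 3 biological replicates per group. SRC-1 is the steroid receptor coactivator encoded by NCOA1. The study is limited to 1 line and 1 siRNA pool per target, and the parental line without the added receptor was not analysed here. Array medians lay between 6.86 and 6.90 log2, and arrays of a group correlated at 0.9967 to 0.9979 across probe sets. NCOA1 fell 7.60-fold with SRC-1 siRNA under vehicle and 4.64-fold under estradiol, which checks the siRNA labels. NCOA1 was itself 2.00-fold higher with estradiol under SRC-1 siRNA (5.86 to 6.86 log2, limma adjusted p = 0.00029), so the siSRC-1_V and siSRC-1_E groups differ in residual SRC-1 transcript. ESR1, the gene of estrogen receptor α, had group means of 12.03 to 12.16 log2. The 4203 probe sets left out as controls read higher in estradiol arrays (mean deviation -0.003 to 0.178 log2) than in vehicle arrays (-0.159 to -0.024).

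Osteoblasts build bone by secreting a collagen-rich matrix and then letting calcium phosphate crystals grow in it. RUNX2 and SP7 (osterix) are the transcription factors that commit mesenchymal cells to this lineage, and DLX5 is a homeobox factor upstream of them. Acidic matrix proteins such as osteopontin and bone sialoprotein bind mineral and cell-surface integrins, and alkaline phosphatase removes the mineralization inhibitor pyrophosphate. Osteoblasts also restrain osteoclasts, the cells that resorb bone, through osteoprotegerin, a secreted decoy receptor for the osteoclast growth signal RANKL.

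SPP1, TNFRSF11B and ALPL were lower in cells with SRC-1 siRNA, both under vehicle and under estradiol. SPP1 (osteopontin) was 1.64-fold lower under vehicle and 1.83-fold lower under estradiol, TNFRSF11B (osteoprotegerin) 1.39-fold and 1.32-fold, and ALPL (tissue-nonspecific alkaline phosphatase) 1.18-fold and 1.35-fold. Estradiol lowered TNFRSF11B 1.34-fold in cells with non-targeting siRNA and 1.27-fold in those with SRC-1 siRNA. The other 7 genes passed the test in none of these 4 comparisons. A gene is called here where limma gave p under 0.01 before and under 0.05 after Benjamini-Hochberg adjustment over 29094 probe sets, the study's own thresholds. The ALPL call under vehicle was lost in 10 of 24 alternative settings, whereas the other knockdown calls of these 3 genes held in all 24. In a culture measured in bulk, fewer cells with a transcript and less of it per cell cannot be told apart.

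The 250 bases before the transcription start are shown for SPP1 and ALPL, which fell with SRC-1 siRNA and matched the RefSeq promoter table (GRCh38.p14). They are also shown for RUNX2, whose protein binds the RUNX core. Of the 10 genes, 6 matched this table, with 10 start windows in all. The match left out the chromosome of TNFRSF11B, so whether the table holds a window for this gene is not shown. TNFRSF11B, SP7, DLX5 and PHEX are named only. The windows are chr4:87975464-87975713 for SPP1, chr1:21508734-21508983 for the first of 3 ALPL starts and chr6:45328080-45328329 for the first of 2 RUNX2 starts, each on the plus strand and written 5′ to 3′. Capitals mark matches to the RUNX core TGTGGT (or ACCACA), to GGTCA (or TGACC), the arm of an estrogen response element, and to the AP-1 motif TGACTCA (or TGAGTCA).
SPP1: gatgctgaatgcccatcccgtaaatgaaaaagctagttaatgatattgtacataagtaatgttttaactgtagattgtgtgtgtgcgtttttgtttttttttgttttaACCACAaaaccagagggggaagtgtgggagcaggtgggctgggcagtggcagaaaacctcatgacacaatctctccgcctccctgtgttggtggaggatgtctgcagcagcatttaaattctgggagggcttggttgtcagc
ALPL: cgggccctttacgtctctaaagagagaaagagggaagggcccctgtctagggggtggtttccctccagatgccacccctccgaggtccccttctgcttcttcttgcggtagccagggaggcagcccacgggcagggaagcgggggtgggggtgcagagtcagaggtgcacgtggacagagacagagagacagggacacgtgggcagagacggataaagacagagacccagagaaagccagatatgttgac
RUNX2: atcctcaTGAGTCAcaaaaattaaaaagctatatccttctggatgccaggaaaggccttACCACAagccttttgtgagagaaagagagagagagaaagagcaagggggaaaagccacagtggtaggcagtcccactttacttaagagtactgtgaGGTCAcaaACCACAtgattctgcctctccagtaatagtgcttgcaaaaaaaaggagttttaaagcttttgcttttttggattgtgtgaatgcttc

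The SPP1 window held 1 RUNX core, at 142 to 137 bases before the start. The first RUNX2 window held 2 RUNX cores, 1 GGTCA and 1 AP-1 motif. None of these letters was found in the 3 ALPL windows, the IBSP window, the second RUNX2 window or the second PTH1R window. The SPARC window held 1 GGTCA and the first PTH1R window 1 AP-1 motif. Among all 35116 windows of this length in the table, 11.0% held a RUNX core, 32.6% a GGTCA or TGACC and 4.20% an AP-1 motif. The full element, this arm and its complement 3 bases apart, was in 0.0399% of all windows and in 0 of the 10. Such matches describe letters only, since binding was not measured.

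Among matrix proteins, SPP1 separated the siRNAs completely. Its values in log2 were 9.91, 9.77 and 9.83 in NT_V, 9.78, 9.63 and 9.91 in NT_E, 9.17, 9.10 and 9.11 in siSRC-1_V, and 8.87, 8.95 and 8.88 in siSRC-1_E. All 6 arrays with SRC-1 siRNA lay below all 6 with non-targeting siRNA, whereas vehicle and estradiol arrays with non-targeting siRNA overlapped. The knockdown difference was -0.71 ± 0.07 log2 (SE, n = 3 per group) under vehicle, with a limma adjusted p of 0.000541, and -0.87 ± 0.07 under estradiol (adjusted p = 8.21e-05). The first of these exceeds in size that of 99.9% of all probe sets tested, and so does the second. SPP1 transcript with SRC-1 siRNA was 61% of the non-targeting level under vehicle and 54.6% under estradiol.

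Estradiol itself left SPP1 short of the threshold. The difference was -0.06 log2 with non-targeting siRNA (95% interval -0.21 to 0.08); with SRC-1 siRNA it was -0.22 (-0.37 to -0.08, adjusted p = 0.0724), and the 3 estradiol arrays lay below the 3 vehicle arrays. The effect with SRC-1 siRNA was called without replicate 2 of NT_E (adjusted p = 0.0389) and without replicate 3 of NT_E (0.0433). Those arrays are outside this comparison and enter it only through the shared estimate of the spread. The effect was also called without the dimmest 40% of probe sets (0.0383), with quantile normalization (0.0341) and with trended and robust variance (0.0246). Under the other settings it was not called. Tested directly, the estradiol effects differed by -0.16 log2 (-0.37 to 0.05).

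SPP1 lies on human chromosome 4 in a row of genes for acidic mineral-binding proteins, followed by unrelated genes. The 4 nearest genes with a probe set of their own on the side of this row, MEPE, IBSP, DMP1 and DSPP, had knockdown differences between -0.01 and 0.12 log2 under vehicle. The 4 on the other side, ABCG2, PPM1K, HERC6 and HERC5, had differences between -0.05 and 0.09. None of these 8 was called under vehicle or under estradiol by limma. MEPE, IBSP, DMP1, DSPP and HERC5 had means of 3.91 to 4.93 log2, below the lower quartile of all values (5.20), where a signal above background is not shown.

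IBSP encodes bone sialoprotein, a late osteoblast product that binds mineral. Its values ran from 4.82 to 4.91 log2 in NT_V, 4.84 to 5.06 in NT_E, 4.91 to 5.02 in siSRC-1_V and 4.84 to 5.10 in siSRC-1_E. It lay below the lower quartile on all 12 arrays, so these data set no level for it. SPARC, osteonectin, is a collagen- and calcium-binding matrix protein. Its values ran from 12.56 to 12.60 log2 in NT_V, 12.50 to 12.53 in NT_E, 12.49 to 12.59 in siSRC-1_V and 12.52 to 12.57 in siSRC-1_E. The spread of SPARC within groups was 0.032 log2, and only 3.5% of probe sets varied less, so its intervals are narrow: the knockdown difference was -0.05 log2 (-0.14 to 0.04) under vehicle and 0.03 (-0.06 to 0.11) under estradiol. NT_E lay fully below NT_V for SPARC, by 0.07 log2, with a limma adjusted p of 0.504.

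**Figure D1:**
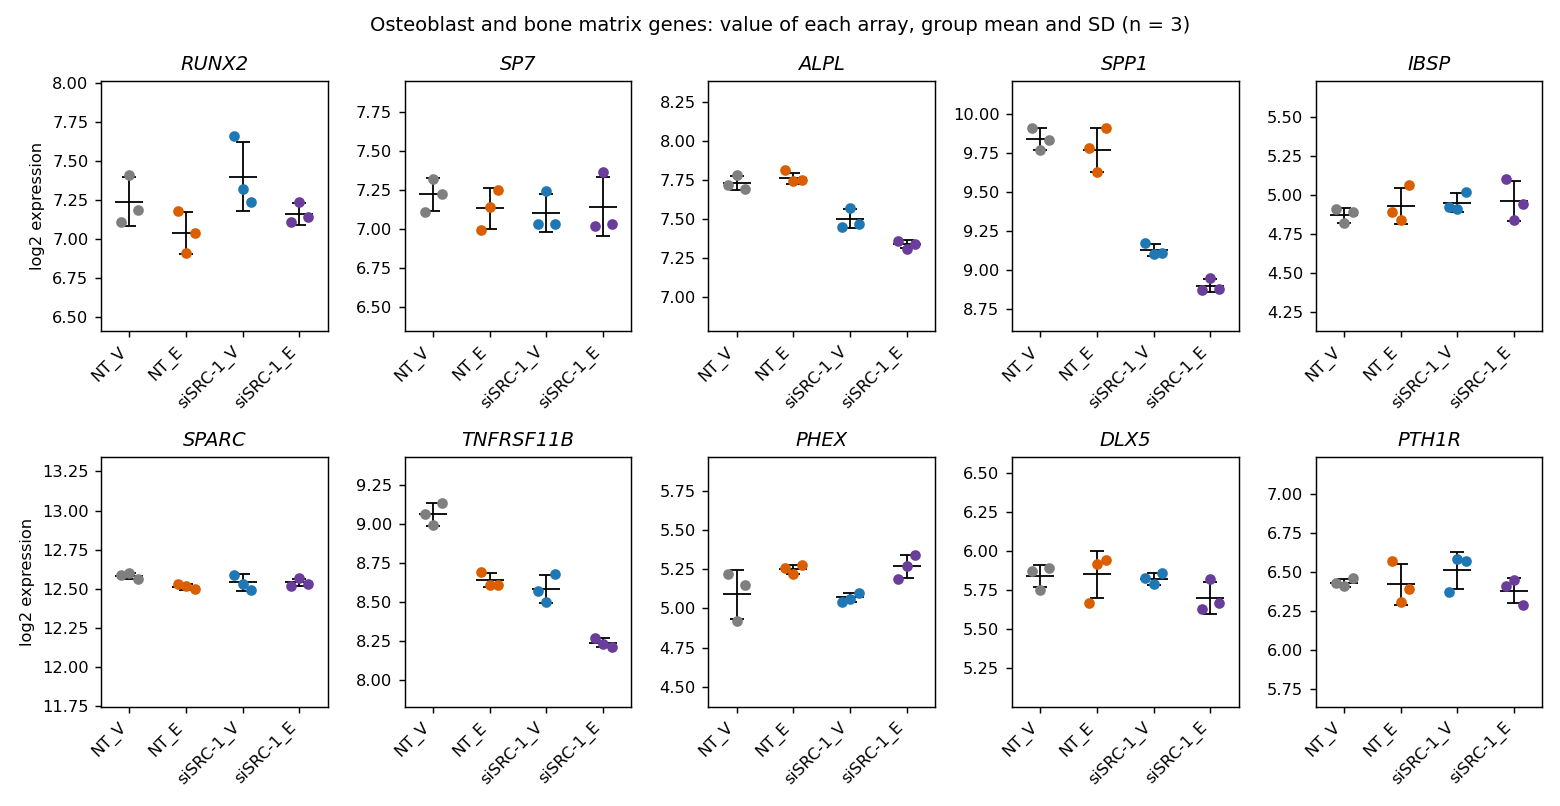
Log2 expression of the 10 genes on each of the 12 arrays; points are arrays (3 per group), the horizontal bar is the group mean and the whisker 1 SD, and every panel spans the same range of log2 units around its own mean. SPP1 and ALPL separate by siRNA, TNFRSF11B steps down from 9.06 in NT_V to 8.24 in siSRC-1_E, and SPARC stays between 12.49 and 12.60.

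Among the mineralization genes, ALPL was lower with SRC-1 siRNA in every array. Its values in log2 were 7.72, 7.78 and 7.69 in NT_V, 7.81, 7.74 and 7.75 in NT_E, 7.45, 7.57 and 7.47 in siSRC-1_V, and 7.36, 7.31 and 7.34 in siSRC-1_E. The groups order as NT_E and NT_V, which overlap, then siSRC-1_V and then siSRC-1_E, which do not. The knockdown difference was -0.43 ± 0.05 log2 (SE) under estradiol (limma adjusted p = 0.00089) and -0.23 ± 0.05 under vehicle (adjusted p = 0.031). The vehicle call was lost when any of 7 arrays was left out: replicates 1, 2 and 3 of NT_V, replicate 2 of NT_E, replicates 1 and 3 of siSRC-1_V and replicate 3 of siSRC-1_E. The difference stayed between -0.27 and -0.21 log2 over all 12 such fits, and with the replicate number as a block it was -0.23 with an adjusted p of 0.0541.

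For ALPL the estradiol difference was 0.03 log2 (-0.07 to 0.13) with non-targeting and -0.16 (-0.26 to -0.06, adjusted p = 0.0596) with SRC-1 siRNA, and neither was called. The effect with SRC-1 siRNA was called when replicate 1 of siSRC-1_V was left out (adjusted p = 0.0453). It was also called without the dimmest 40% of probe sets (0.0256) and with probe sets of 1 symbol only (0.0456), and under no other setting. The difference between the effects was -0.19 log2 (-0.33 to -0.05), with an unadjusted p of 0.0115 and an adjusted p of 0.592 over all probe sets. The 8 nearest genes of ALPL with a probe set of their own, among them the endothelin-converting enzyme gene ECE1 and the perlecan gene HSPG2, had knockdown differences between -0.13 and 0.16 log2 under vehicle, and none was called in either treatment by limma.

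PHEX encodes a membrane endopeptidase whose loss causes X-linked hypophosphatemia. Its values were 5.22, 4.92 and 5.15 log2 in NT_V, 5.26, 5.22 and 5.28 in NT_E, 5.04, 5.06 and 5.10 in siSRC-1_V, and 5.19, 5.27 and 5.34 in siSRC-1_E. Estradiol arrays lay at or above vehicle arrays with non-targeting siRNA and clear of them with SRC-1 siRNA. The estradiol differences were 0.16 log2 (0.00 to 0.31, adjusted p = 0.365) and 0.20 (0.05 to 0.36, adjusted p = 0.116), and neither was called. Averaged over both siRNAs, which uses all 12 arrays, the difference was 0.18 ± 0.05 (SE, adjusted p = 0.0443), a call kept in 2 of the 12 fits that left out an array, those without replicate 1 of NT_V and without replicate 1 of siSRC-1_E. The single effect with SRC-1 siRNA was called without replicate 2 of NT_V (adjusted p = 0.0371). Adjusted for the level of the presumed control probe sets, which itself split estradiol from vehicle arrays, the averaged difference was 0.04 ± 0.11 log2 (SE). PHEX lay below the lower quartile on 5 of 12 arrays.

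TNFRSF11B was the only gene of the 10 called in all 4 comparisons. How many of all probe sets were called in all 4 was not counted. Singly, the comparisons called 1.21% to 6.88% of all probe sets. Its values in log2 were 9.06, 8.99 and 9.13 in NT_V, 8.69, 8.61 and 8.61 in NT_E, 8.57, 8.50 and 8.68 in siSRC-1_V, and 8.27, 8.23 and 8.21 in siSRC-1_E. NT_V was highest and siSRC-1_E lowest, each clear of the other groups, while NT_E and siSRC-1_V overlapped in between. The estradiol difference was -0.42 ± 0.06 log2 (SE, limma adjusted p = 0.00122) with non-targeting siRNA and -0.35 ± 0.06 (adjusted p = 0.00336) with SRC-1 siRNA. The knockdown difference was -0.48 ± 0.06 under vehicle (adjusted p = 0.00175) and -0.40 ± 0.06 under estradiol (adjusted p = 0.00416).

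The difference between the estradiol effects on TNFRSF11B was 0.07 log2, with an unadjusted 95% interval from -0.10 to 0.24 that covers 0. The interval does not reach the size of the estradiol effect. Some NCOA1 transcript remained, at 13.2% of the non-targeting level under vehicle and 21.5% under estradiol. Whether the estradiol effect needs SRC-1 was therefore not tested. These 4 comparisons share groups, so they are not independent of each other. As the left-out probe sets also moved with estradiol, their array mean was tried as a covariate: the TNFRSF11B estradiol effect was then -0.45 ± 0.08 log2 with non-targeting siRNA (adjusted p = 0.0215) and -0.42 ± 0.13 under SRC-1 siRNA (adjusted p = 0.313), no longer called. TNFSF11, which encodes RANKL, the ligand that osteoprotegerin captures, had group means of 4.91 to 4.99 log2, below the lower quartile.

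PTH1R, the receptor for parathyroid hormone on osteoblasts, had values from 6.29 to 6.58 log2 over the 12 arrays, and every pair of compared groups overlapped. Its differences lay between -0.12 and 0.07 log2 in the 4 comparisons, with intervals reaching 0.17 to either side, and none was called.

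The transcription factors did not pass the test. RUNX2, the master factor of the lineage, had means of 7.24 ± 0.16 (SD, n = 3) in NT_V, 7.04 ± 0.13 in NT_E, 7.40 ± 0.22 in siSRC-1_V and 7.16 ± 0.07 in siSRC-1_E. Estradiol differences for RUNX2 were -0.20 log2 (-0.44 to 0.05) and -0.24 (-0.49 to 0.01) for non-targeting and SRC-1 siRNA in turn, and knockdown differences were 0.17 (-0.08 to 0.41) and 0.12 (-0.13 to 0.37). Its spread within groups, 0.156 log2, exceeded that of 87.1% of probe sets, and every pair of compared groups overlapped. The unadjusted 95% intervals reached 0.25 log2 to either side, and the estradiol differences of -0.20 and -0.24 had adjusted p-values of 0.507 and 0.23 in limma. Averaged over both siRNAs, the RUNX2 estradiol difference was -0.22 log2 (-0.39 to -0.04, limma adjusted p = 0.113) and was not called.

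SP7, which acts downstream of RUNX2, ranged from 6.99 to 7.36 log2 over the 12 arrays, with differences between -0.12 and 0.04 log2 in the 4 comparisons. DLX5 ranged from 5.63 to 5.94 log2, with its largest difference at -0.14 (-0.31 to 0.03) for knockdown under estradiol. The compared groups overlapped for both genes in all 4 comparisons.

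**Figure D2:**
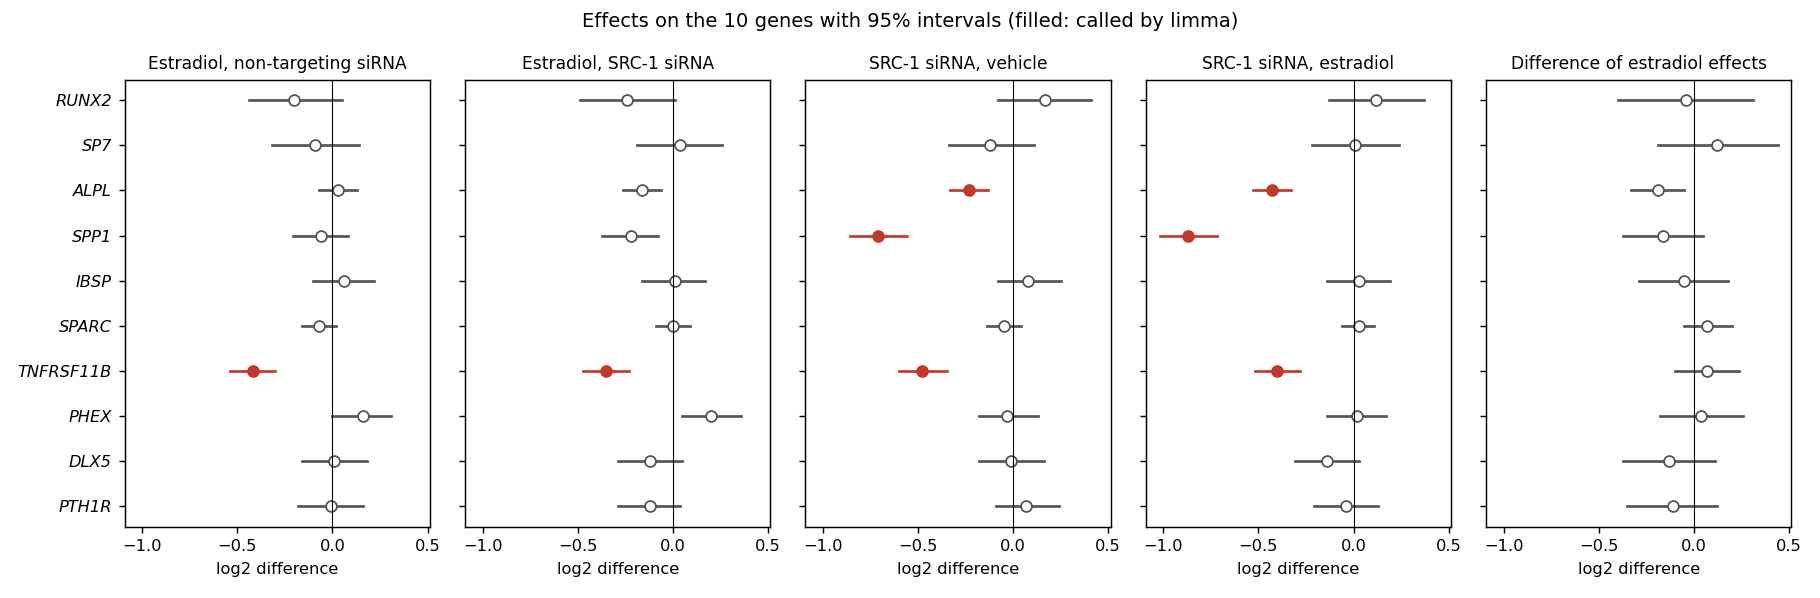
Log2 differences of the 10 genes in the 4 comparisons and in the difference of the estradiol effects (SRC-1 minus non-targeting siRNA), with 95% intervals from limma; filled red points were called. In the 4 comparisons SPP1 reaches -0.87, TNFRSF11B lies between -0.48 and -0.35 and the 7 genes called in none lie between -0.24 and 0.20; in the difference of effects TNFRSF11B lies at 0.07.

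As a set, the 10 genes gave 0 higher and 3 lower for knockdown under vehicle, against 1.21% called on the whole array, 0.265% higher and 0.945% lower. For knockdown under estradiol they also gave 0 higher and 3 lower, against 1.80% called among all, 0.732% higher and 1.07% lower. Estradiol with non-targeting siRNA gave 0 higher and 1 lower (2.73% of all called, 1.85% higher and 0.873% lower), and estradiol with SRC-1 siRNA 0 higher and 1 lower (6.88% called, 4.49% higher and 2.39% lower). The median difference of the set was -0.04 log2 for knockdown under vehicle, beside 0.00 over all probe sets, and -0.02 beside -0.01 for knockdown under estradiol. For estradiol it was -0.04 beside -0.01 in cells with non-targeting siRNA and -0.12 beside -0.02 in those with SRC-1 siRNA. In the knockdown comparisons SPP1, TNFRSF11B and ALPL lay between -0.87 and -0.23 log2 and the other 7 between -0.14 and 0.17.

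Groups did not overlap for 4 of the 10 genes for knockdown under vehicle (18.4% of all probe sets) and 3 for knockdown under estradiol (22.3%). They did not overlap for 3 genes for estradiol under non-targeting siRNA (21.0%) and for 4 under SRC-1 siRNA (25.8%). The 4 for knockdown under vehicle were SPP1, TNFRSF11B, ALPL and IBSP. Of these, IBSP differed by 0.08 log2 (limma adjusted p = 0.716) and lay below the lower quartile on every array. For the difference of the estradiol effects limma called 0 of 10 and 0 of 29094, with 1 of 10 and 2102 of all at an unadjusted p under 0.05. The unadjusted 95% intervals of that difference reached 0.13 to 0.35 log2 to either side, and a call after adjustment would need a larger difference than that.

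Averaged over both treatments, the knockdown effect was called lower for the same 3 genes (5.10% of all called, 2.05% higher and 3.05% lower): SPP1 at -0.79 ± 0.05 log2 (SE), TNFRSF11B at -0.44 ± 0.04 and ALPL at -0.33 ± 0.03. The averaged estradiol effect was called for TNFRSF11B, at -0.38 ± 0.04, and upward for PHEX (9.96% of all called, 6.11% higher and 3.85% lower).

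**Figure D3:**
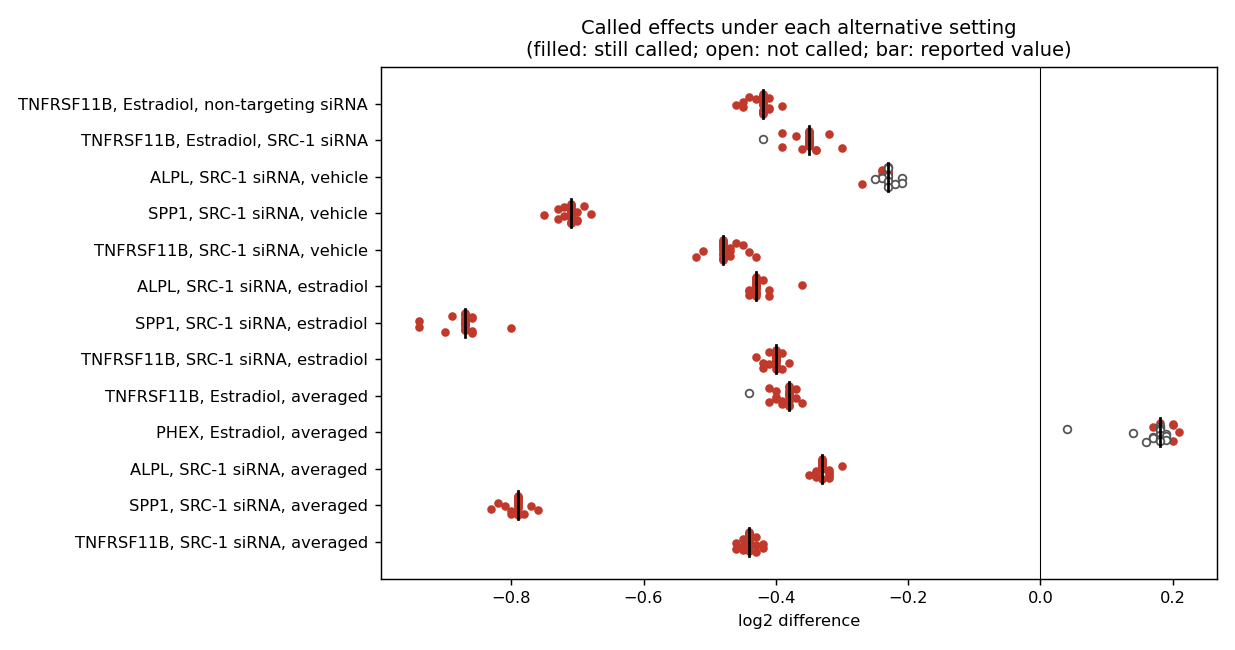
Log2 difference of each called effect under the alternative settings and fits without 1 array; bars give the reported value, filled points were still called and open points were not. The SPP1 effects stay between -0.68 and -0.94 and are called throughout, whereas the ALPL effect under vehicle and the averaged PHEX effect often lose their call.

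Other genes of bone biology, taken from lists that were chosen with earlier results of these data known, were counted for knockdown against 1.21% of all probe sets called under vehicle and 1.80% under estradiol. Among 21 measured genes of other bone matrix proteins, 0 were called under vehicle and 1 under estradiol, the adhesion-modulating glycoprotein gene TNC, at -0.23 log2. COL1A1, the main bone collagen chain, had means of 9.09 to 9.20 log2 and was not called. Osteocalcin has no probe set of its own: the probe set shared by BGLAP and the PMF1-BGLAP readthrough had group means of 7.49 to 7.67 log2 and was called in no comparison. Among 15 genes of mineralization and phosphate handling and 16 other osteoblast transcription factors, 0 were called for knockdown in either treatment by limma. Of 11 signals from osteoblasts to osteoclasts, IL11, a cytokine that promotes osteoclast formation, was called under vehicle, at -0.41 log2 (1.33-fold lower, adjusted p = 0.0122). Of 15 hormone and ligand receptors, the IGF1 receptor gene IGF1R was called in both treatments, at -0.22 and -0.19.

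Estradiol called more of all probe sets than knockdown did, 2.73% with non-targeting and 6.88% with SRC-1 siRNA, and the counts of these lists are read against those shares. RUNX3, a relative of RUNX2, was 2.67-fold higher after estradiol in cells with non-targeting siRNA and 2.32-fold higher in those with SRC-1 siRNA (limma adjusted p = 9.19e-08 and 3.94e-07), from 8.46 ± 0.05 (SD) in NT_V to 9.88 ± 0.08 in NT_E. It was the 1 gene of 16 called among the transcription factors with non-targeting siRNA. With SRC-1 siRNA 5 of 16 were called, RUNX3 upward and 4 downward, where 4.49% of all were called higher and 2.39% lower: the Hippo cofactor gene WWTR1 (-0.25 log2), the AP-1 subunit gene FOSL1 (-0.31), TWIST1 (-0.23) and HEY1 (-0.35). CSF1, the macrophage growth factor that osteoclast precursors need, rose 1.80-fold and 2.03-fold.

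Of the matrix list, THBS1, which encodes thrombospondin 1, was 1.29-fold higher in cells with non-targeting siRNA and 1.32-fold higher in those with SRC-1 siRNA. With SRC-1 siRNA the collagen chaperone gene SERPINH1 also rose, by 0.16 log2, and TNC (-0.30) and COL1A2 (-0.22) fell. In the mineralization list, CA2, a carbonic anhydrase, rose 1.31-fold and 1.25-fold and the phosphate transporter gene SLC20A2 fell by 0.29 and 0.18 log2, and SLC20A1, another phosphate transporter gene, was called at -0.19 with SRC-1 siRNA. Among receptors FGFR2 was lower with either siRNA (-0.30 and -0.18), and BMPR2 (0.31) and LRP6 (0.20), receptors for bone morphogenetic proteins and Wnt ligands, were higher with SRC-1 siRNA.

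**Figure D4:**
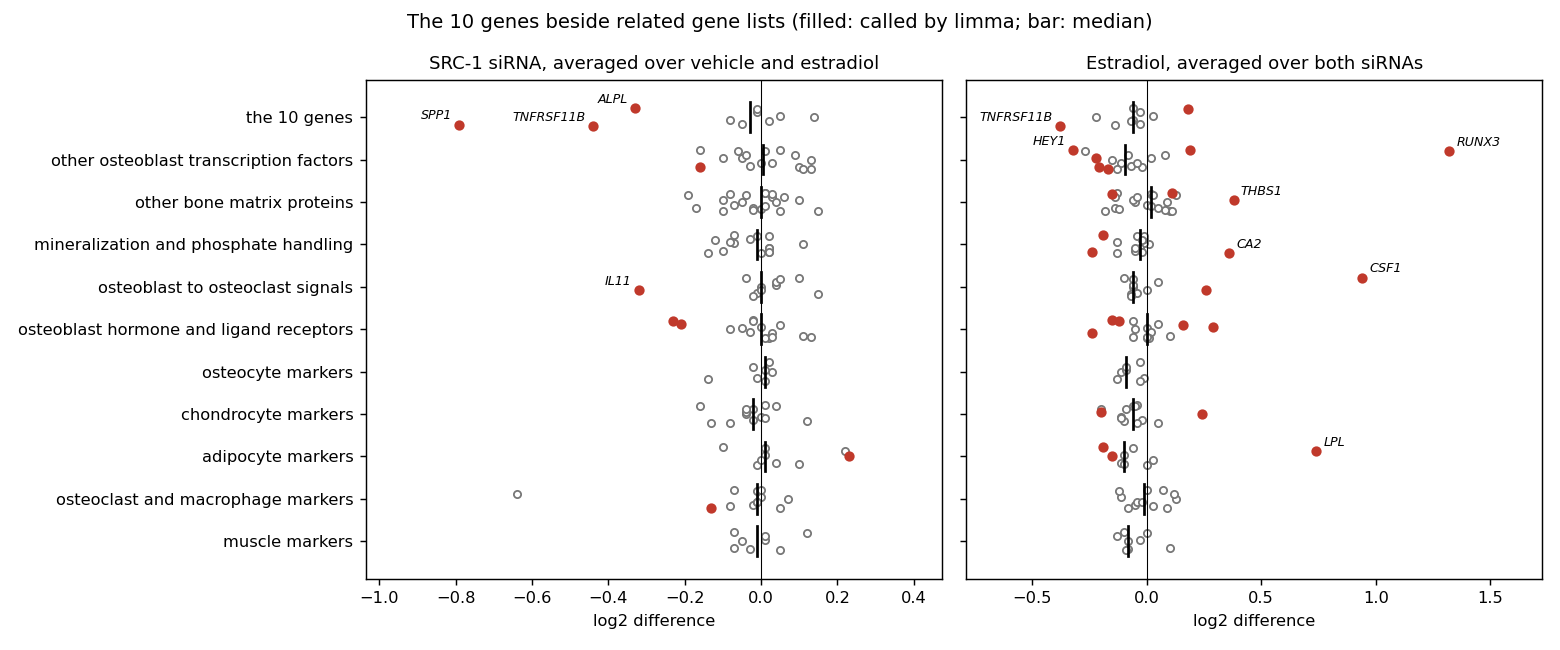
Log2 difference of each gene, by list, for SRC-1 siRNA averaged over both treatments (left) and estradiol averaged over both siRNAs (right); filled red points were called by limma, bars are list medians. SPP1 lies at -0.79 and TNFRSF11B at -0.44 on the left, and RUNX3 at 1.32 and CSF1 at 0.94 lead on the right.

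Markers of other cell types were read for the same arrays. Of 9 adipocyte markers, PPARG, the adipogenic nuclear receptor, was 1.22-fold higher with SRC-1 siRNA under estradiol (limma adjusted p = 0.0208), and FABP4 and CD36 lay below the lower quartile. The summed level of this list was 10.31 to 10.46 log2 with non-targeting and 10.51 to 10.58 with SRC-1 siRNA, without overlap. PPARG, the brightest gene of the list, had means of 9.74 and 9.54 log2 with non-targeting and 9.92 and 9.82 with SRC-1 siRNA (vehicle, then estradiol), while the other 8 were called in neither treatment and the list's median knockdown difference was 0.05 and -0.02. The part of this sum in the results for SPP1, TNFRSF11B and ALPL was not tested. LPL, lipoprotein lipase, rose with estradiol under either siRNA, by 0.61 and 0.88 log2. Of 13 chondrocyte markers, the cartilage factor gene SOX9 rose with estradiol by 0.28 and 0.21 log2, and COL2A1 was called at -0.27 with SRC-1 siRNA. None of 7 osteocyte markers (highest means in CAPG, 8.53, and PDPN, 8.25), 12 osteoclast and macrophage markers (CD68, 10.61, and NFATC1, 9.29) and 8 muscle markers (ACTA1, 8.31, and DES, 7.31) was called in any of the 4 comparisons. Of all probe sets 1.21% to 6.88% were called in these comparisons, so the absence of calls in lists this short tells little. By their means, 3 of the osteocyte, 3 of the osteoclast and macrophage and 1 of the muscle markers lay below the lower quartile. The summed level of the osteoclast and macrophage list under estradiol was 11.63 to 11.76 log2 with non-targeting and 11.47 to 11.59 with SRC-1 siRNA, without overlap, and under vehicle 11.61 to 11.70 and 11.62 to 11.67. Of this list MMP9, named after its values were seen, differed most under estradiol, at -0.84 log2 (limma adjusted p = 0.142). The part of this sum in the knockdown results was not tested either.

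The patterns of the 3 called genes were set beside 11872 other probe sets with 1 symbol and a mean above the median, as Pearson correlations over the 12 arrays, which share their group differences. For SPP1 the highest were LIN28B (0.985), GRAMD1B (0.981) and ADGRL4 (0.981), and 135 exceeded 0.9. For TNFRSF11B they were HRH1 (0.976), ST3GAL1 (0.974) and FRMD6 (0.972), with differences of -0.17 to -0.32 log2 in all 4 comparisons. For ALPL they were CHRNA9 (0.968), NDUFS3 (0.966) and DUSP7 (0.965). NDUFS3 differed by only -0.06 and -0.12 log2 with SRC-1 siRNA under vehicle and estradiol. As deviations from the group means, the correlations with ALPL were 0.08, 0.66 and 0.00, in the order named. In the same order they were 0.44, 0.63 and 0.62 for SPP1 and 0.62, 0.68 and 0.29 for TNFRSF11B. LIN28B differed by -0.70 and -0.80 log2 with SRC-1 siRNA and by -0.04 and -0.14 with estradiol.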

How the data were processed

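The authors processed the arrays with the affy package and tested them with limma, per the submitters' processing notes and the design text; versions, background correction, normalization and summarization are not given in the sources used here. The authors deposited normalized expression on a log2 scale, 1 value per probe set and array, which was not normalized again. Controls were inferred as the 4203 probe sets (of 33297) numbered before the first annotated gene, and were left out. Gene symbols are those of the platform annotation.

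The 4 group means were estimated jointly over the 12 arrays (limma 3.58.1, R 4.3.3, 3.15 prior and 8 residual degrees of freedom, two-sided tests). p-values measure the spread among the labelled biological replicates; the number of arrays limits the precision (median SE of a difference, 0.071 log2). Simulated data with independent noise and added shifts checked only that the fit returned the mean added size. They held no shift shared by the probe sets of an array. Every one of the 10 genes is reported; from the other lists, up to 4 called genes per comparison of 2 groups (the averaged effects were not used, a narrowing of the rule) or, where none was called, the 2 with the highest mean. HEY1, COL1A1, TNFSF11 and BGLAP were added after their values were seen. Genes and lists were chosen with earlier results of these data known. Alternatives covered normalization, filters, variance model, covariate, replicate block, thresholds and leaving out each array. No gene of the set has several probe sets, so averaging them was not run.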

Additional observations from a re-analysis of the deposited data

Results flagged for a closer look

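The probe sets left out as controls, which enter no comparison, had a mean deviation 0.167 log2 higher in the 6 estradiol arrays than in the 6 vehicle arrays (exact permutation test over arrays, two-sided p = 0.00216, the smallest that this design allows). The estradiol results for TNFRSF11B and PHEX are given above with and without this mean as a covariate, and its part in them was not tested further. This mean split estradiol from vehicle arrays without overlap. A fit with it can therefore only weakly tell a shift of these probe sets from an estradiol effect. With it, the averaged estradiol effect gave 212 calls over all probe sets, against 2898 without it.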

How the results depend on the processing

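The effects of the 10 genes were recomputed under 24 settings, giving 1629 values: 1590 kept their side of the threshold, 26 lost and 13 gained a call, and 0 called effects changed sign. Another 69 uncalled values, none above 0.12 log2 in size as reported, had the opposite sign. The SPP1 and TNFRSF11B knockdown calls held under every setting, as did the ALPL call under estradiol. The number of genes called for estradiol with SRC-1 siRNA, 1 as reported, was 3 without the dimmest 40% of probe sets (which hold IBSP, PHEX and DLX5), 2 with a renewed quantile normalization, 2 with a trended and robust variance, 2 with probe sets of 1 symbol only and 0 with the left-out mean as a covariate; leaving out an array gave 1 to 2. The genes gained were ALPL, SPP1 or, without replicate 2 of NT_V, PHEX. Over all probe sets that comparison called 2001 of 29094 as reported and 2450 of 17456 without the dimmest 40%. It called 1995 with quantile normalization, 2601 with trended and robust variance, 1592 of 19460 with 1 symbol and 106 with the covariate. The number called for the averaged estradiol effect, 2 as reported, was 1 with all probe sets tested, 0 with the covariate and 1 at an adjusted p under 0.01; leaving out an array gave 1 to 2. It was 3 with quantile normalization, where SPP1 was also called at -0.17 log2 (adjusted p = 0.0428); SPP1 took the place of PHEX without the dimmest 40% (0.0446), with trended and robust variance (0.0320) and without replicate 3 of NT_E (0.0294). Over all probe sets the averaged estradiol effect called 2898 as reported and 3262 of 33297 with all probe sets tested. It called 212 with the covariate, 1303 at an adjusted p under 0.01 and 2895 with quantile normalization. Without the dimmest 40% it called 3349 of 17456, and with trended and robust variance 3519. The cause of these changes was not tested. With the covariate, knockdown under estradiol was called for 121 probe sets in all against 524 as reported, 3 of the 10 genes in both.

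Same-numbered replicates correlated in their deviations from the group means at -0.03 to 0.21 (median 0.06), over 0.1 in 6 of 18 pairs. Other pairs lay at -0.26 to 0.11 (median -0.02), and 10 of 12 arrays correlated best with an array of their own number. The main fit did not pair the samples by number, and what the replicates share was not tested. With the replicate block 2 of the 10 genes were called for knockdown under vehicle, against 3 without it, and 327 probe sets in all against 352. In a fit restricted to those 6 arrays, 90 probe sets were called for that comparison. Probe sets in the lower quartile limit what is shown for IBSP and PHEX.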
